A study of Homo sapiens with 6 samples.

Results

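The 38 genes described here carry glucose from the cell surface to lactate, into and out of glycogen, and through the later part of the pentose phosphate pathway. They were taken by name from the deposited count table of 61228 gene names, and all 38 had a row in it. They comprise 2 glucose transporters, 15 genes of glycolytic enzymes and 4 genes of lactate formation and transport. Another 8 set the pace of glycolysis or of pyruvate oxidation in mitochondria, 6 act in glycogen metabolism and 3 in the pentose phosphate pathway. A filter on low counts (edgeR's filterByExpr) kept 37 of them among 14704 genes tested, and left out the lactate carrier gene SLC16A1.

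The libraries were poly(A) RNA from MDA-MB-231, an established human breast cancer line of the triple-negative, mesenchymal type, grown in 3D gels of collagen I, for which the protocol gives more than one concentration without tying it to samples, so that a difference in it between the groups cannot be told apart from the knockout. Control cells (3 libraries) had been nucleofected, that is transfected by electric pulse, with the Cas9 nuclease and control guide RNAs. Knockout cells (KO, 3 libraries) had received Cas9 and guides against ETV1, ETV4 and ETV5, related ETS transcription factors that respond to ERK signalling. The sample titles name ETV4 alone, and the names of the KO libraries carry c39, a tag with no explanation in the labels, and an effect of the knockout cannot be told apart from one of a single clone if c39 is a clone. Nothing states that replicates are separate cultures, so a p-value here covers no more than the spread among these libraries, possibly a technical one. Levels are in CPM, the counts divided by the TMM-adjusted library total, and a log2 fold change compares KO with control, with the standard error (SE) of edgeR's quasi-likelihood fit.

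Library totals lay between 18042601 and 23232770 counts, where a gene with 0 counts could still lie at up to 3 counts, or 0.128 to 0.165 CPM, from counting error only. ETV1 was lower in KO (log2 fold change -0.65, SE 0.08) and so was ETV4 (-0.56, SE 0.06), whereas ETV5 had a log2 fold change of 0.01 (SE 0.06); counts over a whole gene do not show whether Cas9 disrupted it. Of 6 markers of this line, all were above 1 CPM, and their sum ran from 8961 to 11086 CPM in control and from 7795 to 9347 CPM in KO. Of 7 luminal markers, ESR1 and PGR, the hormone receptors, were at or below 0.0539 CPM in every library, but the keratin KRT19 fell from a mean of 704 to 406 CPM. KRT19 made up most of the luminal sum, which ran from 703 to 756 CPM in control and from 428 to 449 CPM in KO, while GATA3, FOXA1 and EPCAM had means of 9.42, 1.57 and 19.7 CPM in control and 12.1, 2.38 and 21.1 CPM in KO and did not pass. ZEB1, a marker of the line, fell from a mean of 131 to 112 CPM, and PECAM1, an endothelial marker, from 6.76 to 3.74 CPM. The other markers of the line did not pass. VIM, which made up most of the line's sum, had means of 6661 CPM in control and 5401 CPM in KO. AXL (1023 and 932 CPM) and MSN (1483 and 1203 CPM) had lower means in KO, and CD44 (416 and 531 CPM) and CAV1 (543 and 608 CPM) higher ones. Whether these markers have a part in the results was not tested, and in bulk RNA fewer cells of a type and less RNA per cell cannot be told apart. Leukocyte markers summed to at most 1.89 CPM, fibroblast markers to at most 11.5 CPM and endothelial markers, with CDH5 at 0 counts throughout, to at most 11.01 CPM. Replicate 3 of both groups stood apart from replicates 1 and 2 on the second principal component, which held 39.4% of the variance.

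Glycolysis splits glucose into pyruvate in the cytosol, and lactate dehydrogenase then turns pyruvate into lactate so that the pathway can run on. Side branches store glucose as glycogen or send it through the pentose phosphate pathway, which yields NADPH and ribose, while pyruvate dehydrogenase commits pyruvate to mitochondrial oxidation. Many tumour cells make lactate even with oxygen present, and hypoxia-inducible factors (HIF) are known to switch on many of these genes by binding a short DNA core, ACGTG or GCGTG.

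The promoter windows of the 4 genes with the smallest adjusted p are shown because these genes fell together. Each window is the RefSeq sequence on GRCh38.p14 from 250 bases before to 50 bases after a transcript start, and capitals mark ACGTG or GCGTG read on either strand (CACGT or CACGC in the printed strand).
ALDOC, chr17:28576846-28577145, minus strand: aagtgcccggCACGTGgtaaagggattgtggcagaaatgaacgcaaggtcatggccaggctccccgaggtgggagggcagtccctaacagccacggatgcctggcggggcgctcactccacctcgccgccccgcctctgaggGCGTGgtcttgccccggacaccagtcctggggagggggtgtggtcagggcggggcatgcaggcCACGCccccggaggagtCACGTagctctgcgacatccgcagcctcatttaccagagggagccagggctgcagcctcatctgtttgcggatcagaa
ENO2, chr12:6914330-6914629, plus strand: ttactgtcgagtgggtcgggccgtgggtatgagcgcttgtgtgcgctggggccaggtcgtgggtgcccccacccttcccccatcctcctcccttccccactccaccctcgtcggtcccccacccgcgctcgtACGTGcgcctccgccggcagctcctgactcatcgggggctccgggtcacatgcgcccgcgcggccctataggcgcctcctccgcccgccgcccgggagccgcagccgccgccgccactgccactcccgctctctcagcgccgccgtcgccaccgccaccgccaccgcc
PDK1, chr2:172555840-172556139, plus strand: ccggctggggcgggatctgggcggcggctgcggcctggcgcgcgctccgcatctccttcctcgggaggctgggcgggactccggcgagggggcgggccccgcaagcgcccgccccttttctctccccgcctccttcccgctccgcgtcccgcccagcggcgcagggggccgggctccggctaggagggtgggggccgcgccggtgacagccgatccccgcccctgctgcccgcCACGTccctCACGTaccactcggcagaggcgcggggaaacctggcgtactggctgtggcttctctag
PGK1, chrX:78103998-78104297, plus strand: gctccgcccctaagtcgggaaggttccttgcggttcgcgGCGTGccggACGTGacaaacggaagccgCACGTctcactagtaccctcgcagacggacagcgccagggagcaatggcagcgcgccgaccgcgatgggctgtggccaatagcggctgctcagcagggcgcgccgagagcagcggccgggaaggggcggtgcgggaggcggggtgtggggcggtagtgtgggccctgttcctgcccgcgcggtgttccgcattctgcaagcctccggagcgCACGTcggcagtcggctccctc
The window of ALDOC holds a CACGTG near its 5′ end, which reads ACGTG on both strands, and the window of PGK1 holds a GCGTG and an ACGTG a few bases apart. A further RefSeq window of PDK1, at chr2:172555123-172555422, had no match. RefSeq windows were found for 35 of the 38 genes, 66 windows in all since a gene may have several starts. ACGTG was present in 26 of the 66 (39.4%) and in 21.4% of the 35116 windows of all genes. Windows of all genes were taken whether or not a gene was expressed here, while nearly all of the 38 were. The shares here and below are therefore not like for like, and enrichment was not tested. ACGTG or GCGTG was present in 42 of the 66 (63.6%), against 48.4% of all windows. By gene, either form was present in a window of 18 of the 20 genes called lower and of 13 of the 15 others. By window it was in 26 of 36 (72.2%) and 16 of 30 (53.3%), where genes with several starts count several times. CCGGAA, a core that ETS factors can bind, was searched for on both strands too. It was in 16 of the 66 windows (24.2%), in 17.2% of all windows and in no window printed above. By gene, CCGGAA was in a window of 7 of the 20 genes called lower and of 4 of the 15 others. By window it was in 9 of 36 (25.0%) and 7 of 30 (23.3%). A match is a string of letters and no evidence of binding, and windows of 1 gene overlap or share a locus.

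Across the 37 tested genes, 20 fell in KO at an adjusted p under 0.05 and 0 rose, while 6.42% of all genes tested fell and 3.28% rose (either way, 9.70%). The 38 genes were chosen with earlier results of these data known, so contrasts with all genes are not independent of the data. DESeq2, which called 10.6% of all genes either way, also called 20 lower and 0 higher. Of the genes with a positive change, 0 had an unadjusted edgeR p under 0.05. The median log2 fold change was -0.32, against 0.00 over all 14704 genes. A negative change was found for 28 genes, against 49.3% of all genes, and 4 genes (ALDOC, PFKFB4, ENO2 and PDK1) were called and at least 2-fold lower, against 1.19%. The groups were free of overlap in 24 of the 37 genes, 23 of them lower in KO; over all genes the shares were 31.7% and 16.8%. In 24 genes the KO library lay below the same-numbered control library in all 3 pairs, which held for 28.2% of all genes. The 38 genes took 2.05%, 1.95% and 1.85% of all counts in control replicates 1, 2 and 3, and 1.61%, 1.62% and 1.46% in the KO replicates.

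**Figure D1:**
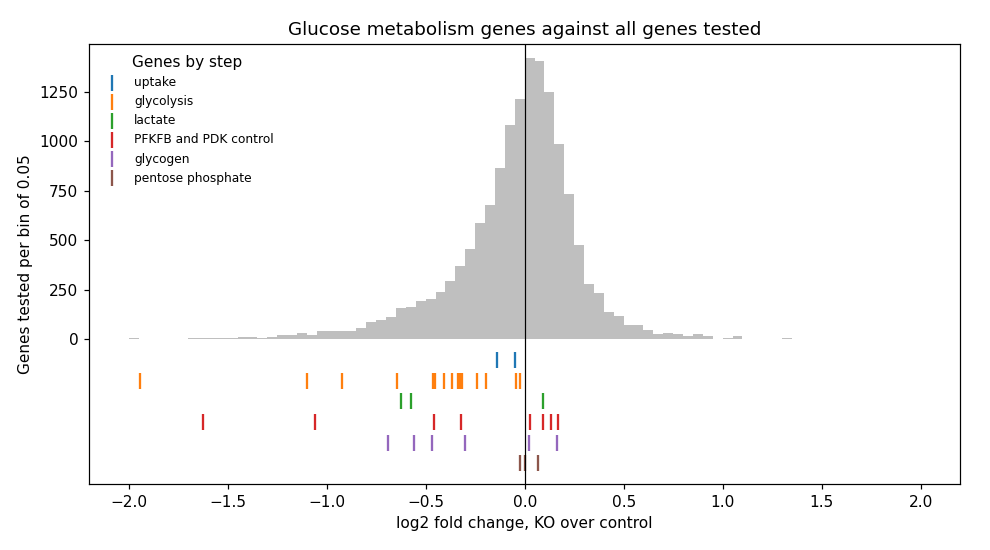
Histogram of the log2 fold change (KO over control) of 14704 genes tested, in bins of 0.05, with a tick for each of the 37 tested genes of glucose metabolism, in a row for each step. The axis ends at 2.2 either side of 0 and leaves out 24 genes. Ticks of the glycolysis row all lie left of 0, those of the pentose phosphate row close to 0.

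By step, the genes called lower were 11 of 15 glycolytic genes, 2 of 3 tested lactate genes, 3 of 8 PFKFB and pyruvate dehydrogenase genes and 4 of 6 glycogen genes, and 0 of the 2 transporters and 0 of the 3 pentose phosphate genes. Median log2 fold changes by step were -0.36 for glycolysis, -0.57 for lactate, -0.15 for the PFKFB and pyruvate dehydrogenase genes, -0.39 for glycogen, -0.10 for uptake and 0.00 for the pentose phosphate genes, and differences between steps were not tested.

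**Figure D2:**
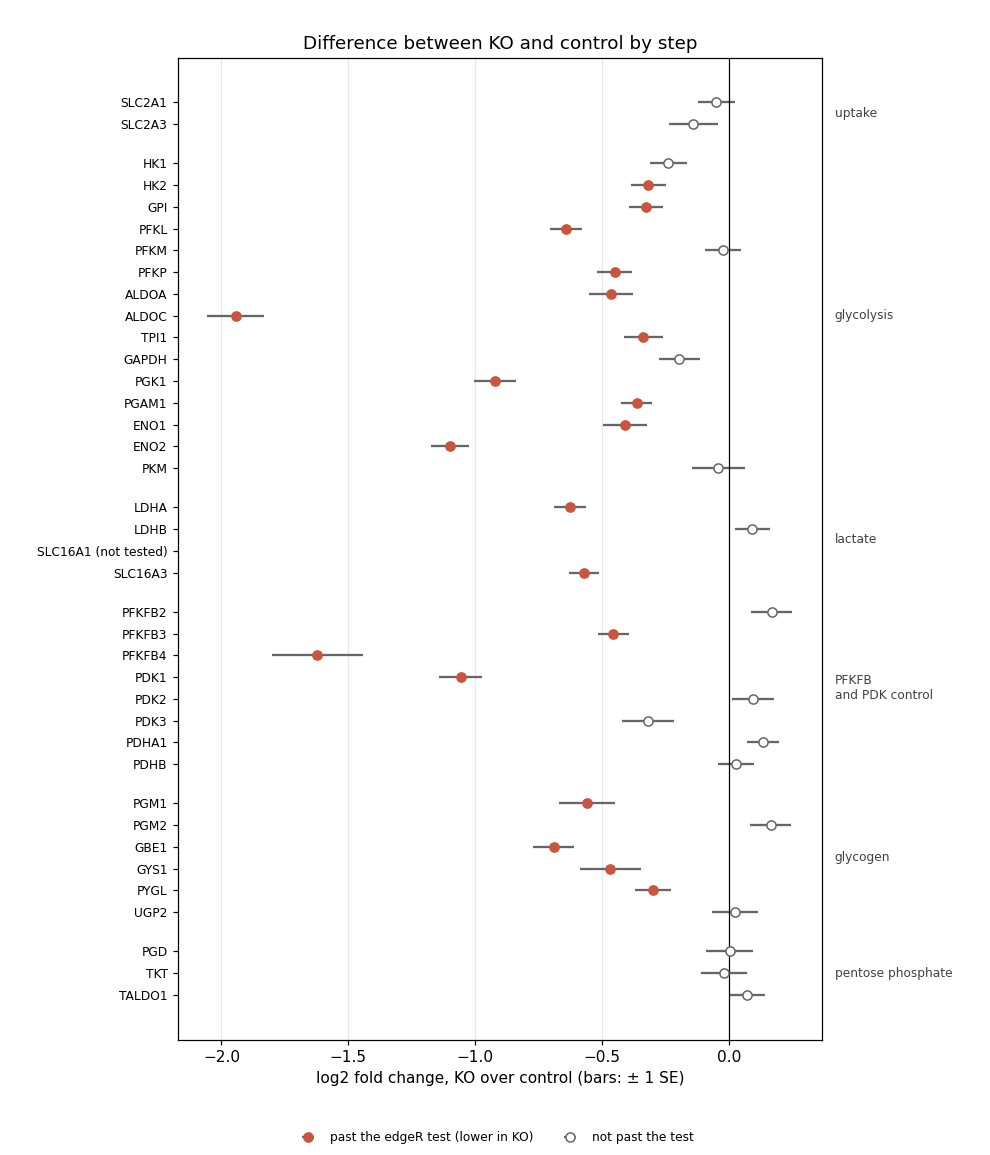
Log2 fold change (KO over control) of each gene with bars of 1 SE, grouped by step. Filled points are the 20 genes past the edgeR test, all of them left of 0, and open points the 17 that did not pass. The point farthest left is ALDOC at -1.94.

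Neither of the 2 glucose transporters passed the test. SLC2A1 (GLUT1), the carrier of most proliferating cells, measured 447, 439 and 388 CPM in control and 423, 418 and 389 CPM in KO, so the groups overlapped (log2 fold change -0.05, 95% interval -0.22 to 0.12, edgeR adjusted p = 0.729). SLC2A3 (GLUT3), a high-affinity carrier, had between 21.9 and 24.7 CPM in control and between 18.7 and 22.4 CPM in KO (log2 fold change -0.14, 95% interval -0.36 to 0.08). Per kilobase of exon, the SLC2A1 level was 89.9 ± 6.79 CPM and that of SLC2A3 3.79 ± 0.23 CPM (SD, n = 3 controls). Here and below, exon length joins the exons of all annotated transcripts of a gene and can exceed that of its main transcript. Comparisons between genes at this level therefore depend on the annotation.

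Hexokinase traps glucose as glucose 6-phosphate, and MDA-MB-231 cells had 2 forms with similar CPM. HK2, the inducible form, read 263, 258 and 285 CPM in control and 205, 212 and 229 CPM in KO and fell (log2 KO/control -0.32 with SE 0.07, adjusted p = 0.0226 by edgeR). HK1, the form found in most tissues, had 305, 297 and 271 CPM in control and 255, 255 and 229 CPM in KO. Its groups did not overlap, but its log2 fold change of -0.24 (SE 0.07) did not pass (edgeR adjusted p = 0.0764). The fit with replicate as a block called it lower (edgeR adjusted p = 8.60e-08), as did the fit without control replicate 3 (0.0437). HK1 was also called lower without the low-count filter (edgeR adjusted p = 0.0320) and without both replicate-3 libraries (9.07e-05). The fit without both replicate-3 libraries called 25.5% of all genes either way. The pairing behind the block was taken from these same counts, where some differently numbered libraries correlated as highly as same-numbered ones. The block fit also called 33.9% of all genes either way. Block p-values, here and for the genes below, therefore cannot decide whether a gene that did not pass had changed. Per kilobase of exon the controls had 46.2 ± 2.82 CPM of HK1 and 44.3 ± 2.35 CPM of HK2. This difference lay within their spread, which does not cover the choice of exon length. GPI, which isomerises glucose 6-phosphate, ranged from 430 to 484 CPM in control and from 355 to 383 CPM in KO and fell (log2 fold change -0.33, SE 0.07).

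Phosphofructokinase, the committed step of glycolysis, is built from 3 related subunits, of which PFKL and PFKP fell and PFKM did not pass the test. The liver-type subunit PFKL had 158, 150.5 and 157 CPM in control and 103, 92.5 and 102 CPM in KO, and fell 1.56-fold (log2 KO/control -0.64 with SE 0.06, adjusted p = 5.22e-04 by edgeR). The platelet-type subunit PFKP, the most abundant of the 3 per kilobase of exon (89.2 ± 4.97 CPM in control), went from 454, 434 and 406 CPM to 323, 325 and 298 CPM (log2 fold change -0.45, SE 0.07). For the muscle-type subunit PFKM, the controls had 78.8, 78.2 and 84.6 CPM and the KO libraries 77.0, 74.9 and 85.6 CPM. PFKM values overlapped in full (log2 fold change -0.03, 95% interval -0.18 to 0.13, edgeR adjusted p = 0.873).

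The aldolases cleave fructose 1,6-bisphosphate, and ALDOC, the brain-type aldolase, showed the largest fall of the 37 genes. ALDOC (ENSG00000109107, chromosome 17, 28573115 to 28577264, minus strand, GRCh38) had 24.7, 22.8 and 20.1 CPM in control and 6.05, 5.92 and 5.56 CPM in KO. Every KO library thus lay below the lowest control by more than the range within either group (3.85-fold lower, log2 KO/control -1.94 with SE 0.11, adjusted p = 3.97e-05 by edgeR). ALDOA, the muscle and general form, read 27.2, 28.1 and 29.5 CPM in control and 19.6, 19.3 and 22.7 CPM in KO, and fell 1.38-fold (SE of the log2 fold change 0.09). Its level is not a measure of all ALDOA reads: in GENCODE release 29, 42.3% of its exon bases also belong to ENSG00000285043 on the same strand, and that gene has its own row, with means of 5.39 CPM in control and 4.62 CPM in KO. How reads in shared exons were counted is not given in the sources used here.

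The later steps hold the most abundant transcripts of the pathway, and their changes differed widely in size. PGK1 (ENSG00000102144, chromosome X, 77910739 to 78129296, plus strand), whose product makes the first ATP of glycolysis, had 1514, 1411 and 1317 CPM in control and 759, 798 and 679 CPM in KO. This 1.90-fold fall (edgeR adjusted p = 3.62e-04) kept the groups far apart. ENO2, the neuronal-type enolase (ENSG00000111674, chromosome 12, 6913745 to 6923698, plus strand), went from 152, 134 and 134 CPM to 69.8, 61.9 and 64.5 CPM, which is -1.10 on the log2 scale (SE 0.07, adjusted p = 9.15e-05 by edgeR). ENO1, the general enolase, fell less, from 2950, 2761 and 2482 CPM to 2161, 2135 and 1871 CPM (log2 KO/control -0.41 with SE 0.09, adjusted p = 0.0210 by edgeR). Triose phosphate isomerase, TPI1, fell by 0.34 on the log2 scale (SE 0.08), and the phosphoglycerate mutase PGAM1 by 0.36 (SE 0.06).

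GAPDH and PKM did not pass the test. GAPDH, glyceraldehyde 3-phosphate dehydrogenase and a common reference gene, had 3585, 3469 and 3127 CPM in control and 3047, 3110 and 2720 CPM in KO. Its highest KO library lay just below its lowest control (log2 KO/control -0.20 with SE 0.08, adjusted p = 0.166 by edgeR), and with the replicate block it was called lower (edgeR adjusted p = 1.01e-06). GAPDH was called lower without both replicate-3 libraries too (edgeR adjusted p = 3.70e-04). For pyruvate kinase, PKM, the controls had 3465, 3298 and 2801 CPM and the KO libraries 3330, 3226 and 2723 CPM. PKM overlapped between groups, and its replicate 3 was the lowest in both (log2 fold change -0.04, 95% interval -0.28 to 0.19). Per kilobase of exon, the controls ranked GAPDH (1138 ± 79.9 CPM), ENO1 (518 ± 44.6), LDHA (400.0 ± 13.5), PKM (372 ± 40.3), TPI1 (291 ± 21.3) and PGK1 (257 ± 17.9), each with its SD over 3 libraries. That order depends on the annotated exon lengths. Values of LDHA and PKM overlapped, as did those of TPI1 and PGK1.

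Some calls of the smaller glycolytic changes were lost when a library of replicate 1 or 2 was left out, but HK2, ENO1, TPI1, GPI, ALDOA and PGAM1 all passed without either replicate-3 library alone. HK2, ENO1 and TPI1 did not pass without control replicate 1, control replicate 2, KO replicate 1 or KO replicate 2 (edgeR adjusted p of up to 0.113, 0.0976 and 0.133). GPI did not pass without control replicate 1 or KO replicate 1 or 2 (up to 0.102), ALDOA without control replicate 2 or KO replicate 1 or 2 (up to 0.0610), and PGAM1 without control replicate 1 (0.0530). ALDOC, ENO2, PGK1, PFKL and PFKP passed whichever library was left out.

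**Figure D3:**
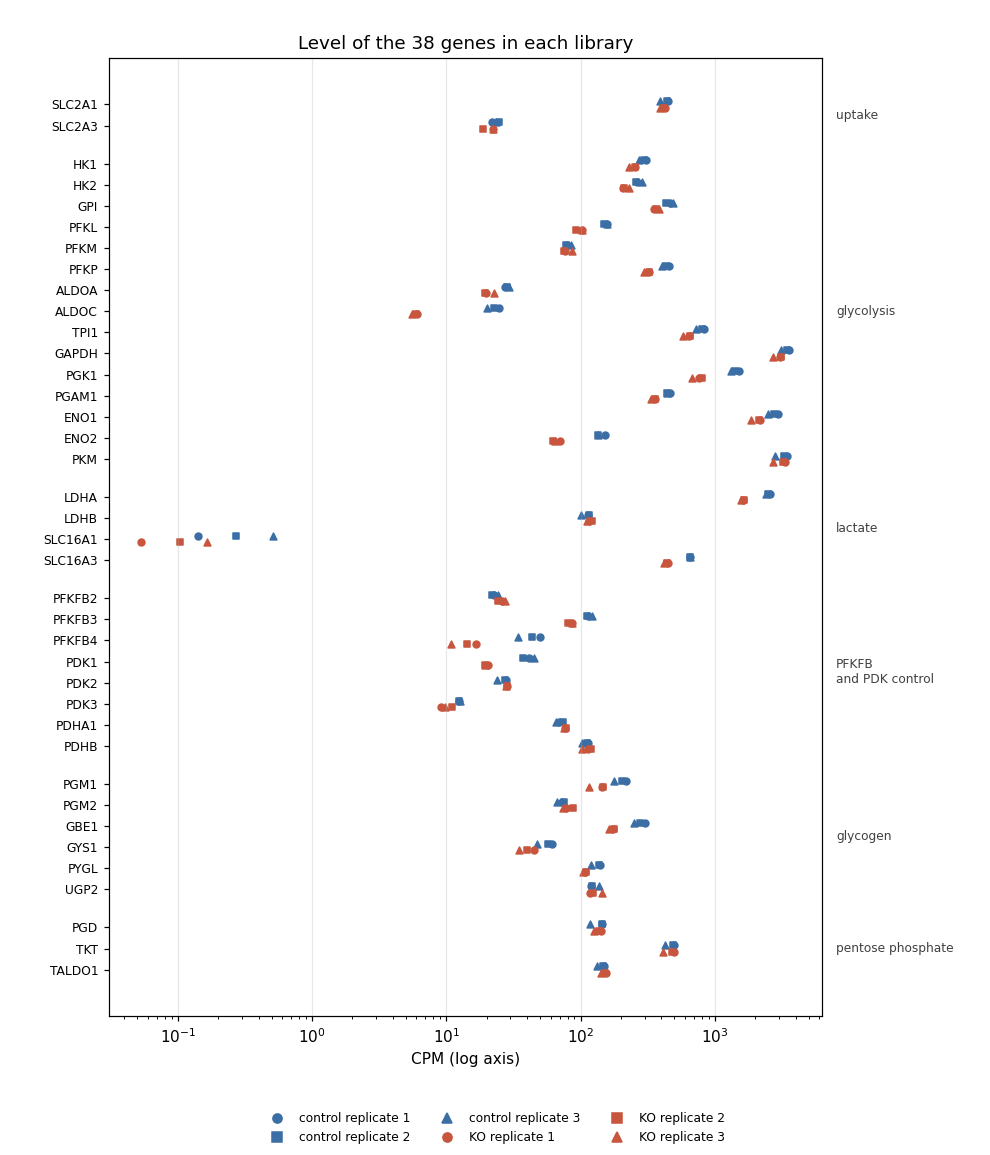
CPM of each of the 38 genes in each library on a log axis, grouped by step. Colours separate control from KO and marker shapes the replicate numbers. ALDOC, ENO2, PGK1, LDHA, SLC16A3, PFKFB4 and PDK1 show both groups clear of each other, while SLC2A1, PFKM, PKM and the pentose phosphate genes overlap.

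LDHA and SLC16A3, which make and export lactate, fell in KO, while LDHB, whose product favours the reverse reaction, did not pass the test. LDHA, the lactate dehydrogenase subunit that favours lactate formation (ENSG00000134333, chromosome 11, 18394388 to 18408425, plus strand), had 2573, 2471 and 2407 CPM in control and 1610, 1657 and 1559 CPM in KO. Between its highest KO and lowest control library lay a gap of several times the range within a group (1.54-fold lower, log2 KO/control -0.63 with SE 0.06, adjusted p = 5.64e-04 by edgeR). LDHB, the heart-type subunit, read 113, 116 and 101 CPM in control and 116, 122 and 112 CPM in KO (log2 fold change 0.09, 95% interval -0.07 to 0.25, edgeR adjusted p = 0.470). In GENCODE release 29 a same-strand gene, ENSG00000285854, shares 33.4% of the LDHB exon bases.

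SLC16A3 encodes MCT4, the carrier that exports lactate from glycolytic cells. It had 649.5, 648 and 653 CPM in control and 450.4, 443 and 418 CPM in KO, with a very narrow control range, and fell 1.49-fold (log2 KO/control -0.57 with SE 0.06, adjusted p = 6.54e-04 by edgeR). SLC16A1, which encodes MCT1, was close to undetected: 3, 5 and 12 counts in the controls and 1, 2 and 3 counts in KO, too few for a test.

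Enzymes that set the level of fructose 2,6-bisphosphate, the main activator of phosphofructokinase, separated by isoform. PFKFB4 had 50.1, 43.8 and 34.3 CPM in control and 16.5, 14.2 and 10.8 CPM in KO. Replicate 3 was the lowest in either group, and each KO library lay about as far below its same-numbered control (log2 differences of -1.60, -1.63 and -1.66). The fitted fall was 3.08-fold (log2 KO/control -1.62 with SE 0.18, adjusted p = 0.00116 by edgeR). PFKFB3, known for its strong kinase activity, went from 114, 112 and 121 CPM to 85.6, 80.6 and 86.4 CPM (log2 fold change -0.46, SE 0.06). PFKFB2, the heart-type isoform, had between 22.0 and 24.3 CPM in control and between 24.2 and 27.2 CPM in KO (log2 fold change 0.17, 95% interval -0.02 to 0.35, edgeR adjusted p = 0.237).

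Pyruvate dehydrogenase kinases switch off pyruvate dehydrogenase and so limit the oxidation of pyruvate in mitochondria. PDK1 (ENSG00000152256, chromosome 2, 172555373 to 172608669, plus strand) had 41.6, 37.3 and 44.8 CPM in control and 20.5, 19.5 and 19.5 CPM in KO, a 2.08-fold fall (log2 KO/control -1.06 with SE 0.08, adjusted p = 2.16e-04 by edgeR). Its KO libraries were nearly equal. PDK2 had 28.0, 27.3 and 23.9 CPM in control and 28.4, 28.1 and 27.9 CPM in KO (log2 fold change 0.09, 95% interval -0.09 to 0.28). PDK3 had 9.21, 10.95 and 9.85 CPM in KO against 12.3 to 12.7 CPM in control, without overlap and without passing (log2 KO/control -0.32 with SE 0.10, adjusted p = 0.0903 by edgeR; 0.0138 with the replicate block). Genes of the enzyme's own subunits did not pass either. PDHA1, the alpha subunit, ranged from 65.9 to 74.5 CPM in control and from 75.5 to 78.0 CPM in KO (log2 KO/control 0.13 with SE 0.06, adjusted p = 0.238 by edgeR), and with the replicate block it was called higher (0.0241). PDHB, the beta subunit, had a log2 fold change of 0.03 (95% interval -0.14 to 0.19). Exons of PDK2 and PDHA1 overlap genes on the opposite strand over 38.6% and 21.3% of their bases, and the strand setting of the counting is not given in the sources used here.

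Of the 6 glycogen genes, GBE1, PGM1, GYS1 and PYGL fell, and PGM2 and UGP2 did not pass. GBE1, the branching enzyme, had 300.4, 278 and 249 CPM in control and 173, 178 and 162 CPM in KO and fell 1.61-fold (log2 KO/control -0.69 with SE 0.08, adjusted p = 0.00123 by edgeR). PGM1, the phosphoglucomutase that links glycogen to glucose 6-phosphate, went from 219, 203 and 177 CPM to 143.5, 147 and 115 CPM (log2 KO/control -0.56 with SE 0.11, adjusted p = 0.0149 by edgeR). Replicate 3 was again lowest in both groups. GYS1, glycogen synthase, fell by 0.47 (SE 0.12) and PYGL, the liver-type phosphorylase that releases glucose units, by 0.30 (SE 0.07) on the log2 scale. Only GBE1 of these genes passed with each library left out. PGM1 did not pass without control replicate 1 or 2 (edgeR adjusted p of up to 0.0685), and GYS1 and PYGL did not in 5 of the 6 such fits (up to 0.157 and 0.140), passing only without control replicate 3.

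PGM2, which acts mainly on pentose phosphates, had 72.9, 75.3 and 66.6 CPM in control and 78.1, 88.2 and 74.2 CPM in KO (log2 KO/control 0.16 with SE 0.08, adjusted p = 0.252 by edgeR). The replicate block called it higher (edgeR adjusted p = 0.00599). UGP2, which makes the UDP-glucose that glycogen synthase uses, ranged from 119.7 to 138 CPM in control and from 117 to 144 CPM in KO (log2 fold change 0.02, 95% interval -0.18 to 0.23).

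No change was detected in the pentose phosphate genes. PGD, which makes NADPH and ribulose 5-phosphate, had 145, 144 and 117 CPM in control and 142, 138 and 125 CPM in KO (log2 fold change 0.00, 95% interval -0.21 to 0.21). TKT, transketolase, read 496, 487 and 428 CPM in control and 497, 481 and 411 CPM in KO (log2 fold change -0.02, 95% interval -0.23 to 0.18). TALDO1, transaldolase, had between 132 and 149.5 CPM in control and between 142 and 155 CPM in KO (log2 fold change 0.07, 95% interval -0.09 to 0.23). In all 3 genes, replicate 3 was the lowest of its group. With edgeR and with DESeq2, 0 of the 3 passed, and 0 had an unadjusted p under 0.05.

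Related genes can be compared within each library, since the ratio of their counts depends neither on scaling to the library total nor, between groups, on gene length. Of 13 such log2 ratios, 9 did not overlap between groups, 8 of them lower in KO. Ratios of other gene pairs were not computed, so these counts have no background share. The pairs were chosen with earlier results known, and their ratios restate changes of the same genes given above. ALDOC over ALDOA went from -0.14, -0.30 and -0.56 in control to -1.70, -1.70 and -2.03 in KO, a difference of -1.47. PFKFB4 over PFKFB3 differed by -1.17, PDK1 over PDK2 by -1.15 and PDK1 over PDK3 by -0.73. The ratio of LDHA to LDHB was 4.50, 4.42 and 4.58 in control and 3.79, 3.76 and 3.79 in KO on the log2 scale, so LDHA counts per LDHB count were 1.65-fold lower. PGM1 over PGM2 differed by -0.72, ENO2 over ENO1 by -0.69 and PFKL over PFKP by -0.19. PFKM over PFKP was the ratio without overlap that was higher, by 0.43. HK2 over HK1 (-0.08), SLC2A3 over SLC2A1 (-0.10) and PDHA1 over PDHB (0.11) overlapped. Each ratio without overlap had p = 0.1 in a two-sided exact permutation test, the smallest that 3 libraries against 3 allow, and 0.144 after Benjamini-Hochberg adjustment over the 13, so none could pass.

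**Figure D4:**
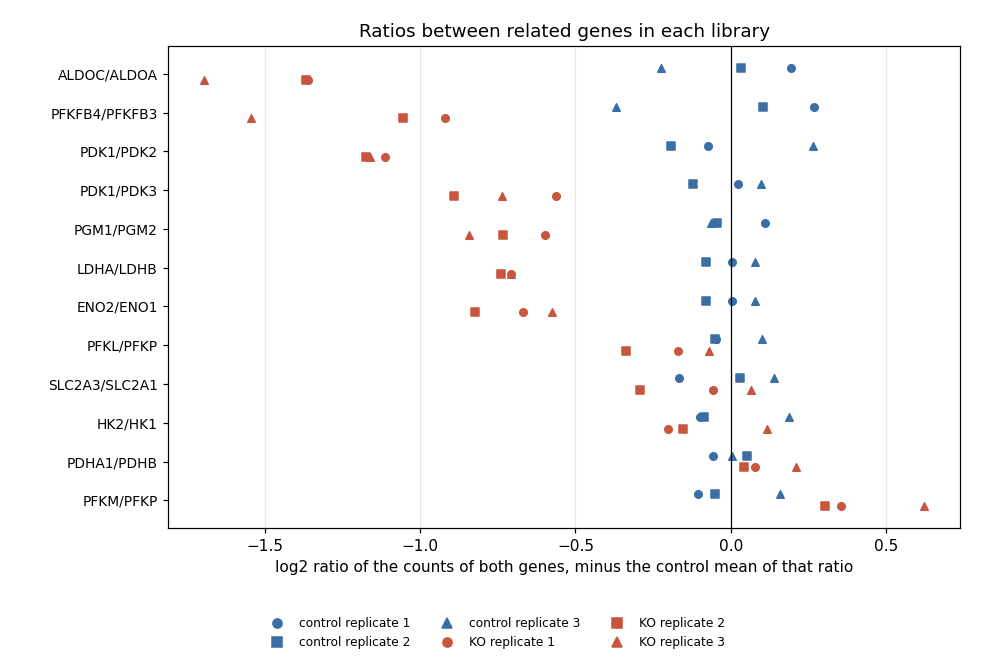
Log2 ratio of the counts of 2 related genes in each library, minus the control mean of that ratio, for 12 gene pairs (the pair with SLC16A1 is left out for its low counts). Marker shapes give the replicate numbers. ALDOC/ALDOA lies farthest left in KO, PFKM/PFKP lies to the right, and HK2/HK1 and SLC2A3/SLC2A1 overlap.

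Replicate 3 deviated from its group mean in the same direction in control and KO for 34 of the 37 genes, below it for 25 and above it for 9. The share over all genes was not computed. Over 10032 genes, the deviations of control 3 and KO 3 correlated at 0.83, so the count cannot be read as particular to these genes. HK2, UGP2, PFKM and ALDOA were among those above, PKM, PGM1 and PFKFB4 among those below. With replicate as a block, 23 of the 37 genes were lower and 2 higher, where 16.7% and 17.2% of all genes were. Without both replicate-3 libraries, 22 were lower and 1, PGM2, was higher, in a fit that called 25.5% of all genes either way. The number called lower was 12 without control replicate 1 and 13 when control replicate 2, or replicate 1 or 2 of KO, was left out, in fits that called 3.80% to 4.54% of all genes. Across control levels per kilobase of exon, the signed log2 fold change showed little order (Spearman's rho -0.09 over 37 genes, which share the same libraries).

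Beyond the 38, 88 further genes of the same pathways were listed from general knowledge, and 59 of them passed the filter. That list, too, was written with earlier results of these data known. Of these 59, 8 fell and 2 rose, where 6.42% and 3.28% of all genes did, and their median log2 fold change was -0.01. Of 9 further pentose phosphate genes tested, 2 fell. The smaller adjusted p was that of H6PD, the hexose 6-phosphate dehydrogenase of the endoplasmic reticulum, with 178, 163 and 173 CPM in control and 85.3, 87.0 and 81.5 CPM in KO (2.03-fold lower, log2 KO/control -1.02 with SE 0.06, adjusted p = 4.50e-05 by edgeR). RBKS, ribokinase, fell from 6.65 ± 0.58 to 4.13 ± 0.51 CPM (SD, n = 3 each).

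Of 6 further transporters tested, 1 fell and 1 rose. SLC2A12 fell from 5.44, 5.44 and 5.27 CPM to 1.71, 2.18 and 1.27 CPM (3.11-fold lower, log2 fold change -1.64, SE 0.20). SLC2A8, an intracellular carrier, rose from 5.98 ± 0.26 to 8.89 ± 1.42 CPM (SD, n = 3 each, log2 fold change 0.57, SE 0.14). Of 9 further genes of glycolysis and gluconeogenesis, 2 fell: FBP1, fructose bisphosphatase, had a log2 fold change of -0.46 (SE 0.08) and PC, pyruvate carboxylase, one of -0.43 (SE 0.08). Of 21 further glycogen genes, 3 fell and 1 rose. PYGB, the brain-type phosphorylase, fell from 632 ± 12.6 to 493 ± 24.0 CPM (SD, n = 3 each). The lysosomal glucosidase GAA fell 1.42-fold and PPP1R3G, a glycogen-targeting phosphatase subunit, from 2.77 to 1.03 CPM, while glycogenin, GYG1, rose 1.31-fold (log2 KO/control 0.39 with SE 0.08, adjusted p = 0.0213 by edgeR).

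In the lists of lactate genes and of pyruvate entry outside the 38, edgeR and DESeq2 called 0 of 4 and 0 of 10 tested genes, and 2 and 3 had an unadjusted p under 0.05. The replicate block called LDHD lower and SLC16A7 and EMB higher among the former, and PDPR, PDHX and MPC2 higher among the latter. BSG, the chaperone of the lactate carriers, had means of 910 CPM in control and 915 CPM in KO (log2 fold change 0.01, SE 0.10). H6PD, SLC2A12 and FBP1 passed with each library left out. The other 7 called genes did not: SLC2A8 and RBKS each passed in 1 of the 6 such fits (edgeR adjusted p of up to 0.122 and 0.0860), GYG1 in 2 (0.0897), and PC, PYGB, GAA and PPP1R3G in 3 each (0.0577, 0.0582, 0.0568 and 0.0969). Of the 59, 3 were lower and 0 higher without control replicate 1 or control replicate 2. Without KO replicate 1, 0 were higher, and without KO replicate 2, 4 were lower and 0 higher. These fits called 3.80% to 4.54% of all genes either way. With the replicate block 16 were lower and 11 higher, where 16.7% and 17.2% of all genes were.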

How the data were processed

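Poly(A) RNA libraries of 6 samples, 3 control and 3 KO, were analysed. The deposited values are raw counts of reads per gene name. Per the submitters' processing notes the authors aligned to hg38 with STAR 2.7.9a and counted with featureCounts, after FastQC 0.11.9 and with R 4.1.1. The annotation, strand setting and handling of reads with several matches: not given in the sources used here. Per the labels' protocols the library kit was stranded. Samples were grouped by their treatment label and numbered by their titles.

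All genes were fitted with edgeR 4.0.16 in R 4.3.3 (filterByExpr, TMM factors, robust quasi-likelihood fit, group as the single term), with Benjamini-Hochberg adjustment over 14704 genes and a threshold of 0.05; limma 3.58.1 was loaded with it. Alternatives were other size factors, library totals, DESeq2 1.42.0, no filter, a replicate block, libraries left out, pseudogene counts added to their parent gene and, chosen after seeing the data, the counts of an overlapping gene added to ALDOA. On simulated counts (14486 genes fitted, 50 altered genes per fold size) the test found 8% of those altered 1.25-fold, 66% of those altered 1.5-fold, 86% of those altered 2-fold and 96% of those altered 4-fold, while 9 of 14286 unaltered genes were called. Simulated libraries were drawn independently, without the shift shared by both replicate-3 libraries, and the altered genes were picked at random. These rates therefore need not hold for the genes described here.

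The 38 genes, the further pathway list and the gene pairs were chosen with earlier results of these data known. All 38 are described, with the targeted genes and, from the further list, up to 3 genes per step and direction with the smallest adjusted p; BSG was named after its values were seen, and some genes of the further list are not reported here. Promoters are those of the 4 genes with the smallest adjusted p.

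Both groups carry replicate numbers 1 to 3, with nothing said of a shared day. Deviations from the group means correlated, across 10032 genes whose mean log2 CPM exceeded 3, at 0.55, 0.45 and 0.83 within same-numbered pairs, each above 0.1, so the numbers were taken to pair the samples, from the data and not from the labels. Control 1 with KO 2 (0.59) and control 2 with KO 1 (0.58) correlated as highly, so what stands apart is replicate 3, and numbers 1 and 2 are not told apart. The biological coefficient of variation was 10.5%, and 4.13% with the block.

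Positions, exon lengths and overlaps are from GENCODE release 29 on GRCh38, perhaps not the annotation behind the deposited counts. Exon length is the union of the exons of all annotated transcripts of a gene.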

Additional observations from a re-analysis of the deposited data

How the results depend on the processing

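All 20 genes called lower kept their direction under every alternative run. They also kept their call with edgeR's RLE factors, with library totals, with DESeq2, without the filter, with pseudogene counts added (at most 0.330% of any parent gene) and with the replicate block, and ALDOA kept its call with the overlapping gene's counts added. With 1 library left out, 12 to 21 of the 37 genes were called lower and 0 higher. Such fits called 3.80% to 11.6% of all genes either way, and 11 of the 20 passed in all 6 of them. Among the further pathway genes, 3 to 8 were then lower and 0 to 3 higher. The replicate block gave 23 of the 37 lower and 2 higher, and 16 further genes lower and 11 higher; among the 37 it changed no call other than those of HK1, GAPDH, PDK3, PDHA1 and PGM2. Without both replicate-3 libraries the fit called 25.5% of all genes either way (1731 genes higher), and 1 of the 37 and 10 further genes were higher. The cause was not tested; fits with 1 library left out have fewer samples.

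Signs turned only for values near 0 that no fit called. With 1 library left out, log2 fold changes ran from -0.11 to 0.0054 for SLC2A1, -0.066 to 0.019 for PFKM, -0.13 to 0.061 for PKM, -0.016 to 0.11 for PDHB, -0.050 to 0.093 for UGP2, -0.092 to 0.076 for PGD, -0.087 to 0.077 for TKT and -0.018 to 0.043 for ETV5. The log2 ratios ran from -0.18 to 0.014 for HK2 over HK1 and from -0.18 to 0.0033 for SLC2A3 over SLC2A1. Without both replicate-3 libraries UGP2 was at -0.0037 and PGD at -0.039, and without the filter PGD was at -0.0014. Low counts (1 to 12 in a library) kept SLC16A1, alone among the 38, from being tested.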
